A study of Mus musculus with 6 samples.

Results

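SWI/SNF remodelers are assembled on a set of subunits that the canonical BAF form and the PBAF form have in common. The transcripts of 10 of these shared subunits were followed in mouse uterine stromal cells, WT or with conditional deletion of Pbrm1 (Pbrm1 cKO). They were Smarca4, Smarca2, Smarcb1, Smarcc1, Smarcc2, Smarcd1, Smarcd2, Smarcd3, Smarce1 and Actl6a, taken by gene symbol from a table of 54232 genes with no rule on their values. All 10 were found, are annotated as protein-coding, and passed the low-count filter of the test.

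SWI/SNF complexes are ATP-driven machines that move histone octamers along DNA or remove them, which changes how accessible the DNA is to transcription factors. Smarca4 (BRG1) and Smarca2 (BRM) are alternative motor subunits, so a complex holds either one or the other. Smarcc1 and Smarcc2 form the scaffold dimer, Smarcd1, Smarcd2 and Smarcd3 are alternative subunits of the core, Smarce1 and Smarcb1 complete the core, and Actl6a sits with actin on the motor module. Pbrm1 belongs to the PBAF form alone and reads acetylated histones through its bromodomains.

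Cells came from uteri on day 4 of pseudopregnancy, and the labels also call this stage day 4 of pregnancy. There were 3 WT and 3 Pbrm1 cKO libraries. The labels name the controls WT, whereas the study describes Pbrm1 fl/fl littermates. The Pbrm1 cKO mice were Pbrm1 fl/fl animals with PR-IRES-cre, in which Cre follows the progesterone receptor gene and is therefore active in uterine epithelium and corpus luteum besides the stroma. Mice were 8 to 12 weeks old. Each preparation pooled 5 to 10 uterine horns, and the protocol field of the Pbrm1 cKO samples also reads WT. The cells were plated for 4 hours and kept in fresh medium for 2 hours before lysis. The labels do not say whether the 3 samples of a group came from separate animals, whereas a legend of the study describes the tracks of such cells as 3 biological replicates. The p-values rest on the spread between these samples, which DESeq2 modelled per gene as the same in both groups.

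The libraries held between 13253575 and 18338667 counts. A count of 0 allows up to 3 counts, or 0.164 to 0.226 CPM (counts scaled to library size), for counting error only. Pbrm1 had 1354, 1385 and 1677 normalized counts in WT, against 396.6, 458.6 and 451.3 in Pbrm1 cKO, a log2 fold change of -1.76 (SE 0.13, DESeq2 adjusted p = 5.19e-40). The Pbrm1 cKO mean was 29.6% of the WT mean, so some Pbrm1 transcript remained in these libraries. Counts per gene do not tell intact transcript from transcript without the deleted part, nor which cells it came from. Normalized counts are raw counts divided by DESeq2 size factors, and a positive log2 fold change means a higher level in Pbrm1 cKO. Values of the 3 libraries of a group are given in the order of their replicate numbers. The WT libraries varied more among themselves than the Pbrm1 cKO libraries did, with biological coefficients of variation of 0.16 and 0.0459. By the median over genes, squared differences between WT libraries were 4.93 to 11.3 times sampling noise. Those between Pbrm1 cKO libraries were 1.63 to 3.01 times that noise. The spread that DESeq2 shared between the groups therefore matched neither of them.

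The stromal identity of the cells was checked on marker lists. All 14 stromal genes were tested, among them Vim and Col1a1, and 8 fell and 1 rose. Their summed level was 7456 to 8566 CPM in WT and 5804 to 6155 CPM in Pbrm1 cKO. Leukocyte genes moved with genotype as well. Of 16 such genes 15 rose, Lyz2 by 2.25 and Cd74 by 3.05 on the log2 scale, and their sum went from 316.5, 691.1 and 669.3 CPM in the WT libraries to 2987, 2982 and 3116 CPM in the Pbrm1 cKO libraries. Of 20 S phase genes all 20 fell, including Mcm6 and Pcna, and their sum went from 1486 to 1525 CPM down to 928 to 944.2 CPM. Epithelial genes summed to 118.7 to 198.4 CPM in WT and 207.8 to 219.3 CPM in Pbrm1 cKO, with 3 of the 11 tested higher, Krt8 among them and Krt18 not, and Foxa2 at the floor. Endothelial genes summed to 217.2 to 443.7 CPM and 184.4 to 216.9 CPM, with 3 of 10 lower, Emcn among them and Eng not. Smooth muscle genes summed to 3759 to 4043 CPM and 3651 to 3792 CPM, with 4 of the 9 tested lower, Des among them and Tagln not, and Myocd at the floor. These counts stand beside 15.9% of all genes tested that were higher and 15.2% that were lower, and no test of the lists was made. WT replicate 1 held the lowest leukocyte, epithelial and endothelial sums of the WT libraries. The part of these lists in the results below was not tested, and in RNA from mixed cells a change in the number of cells of a type and a change in RNA per cell cannot be told apart.

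The promoters of the shared subunits can be read from RefSeq (GRCm38.p6), as 250 bases before and 50 bases after the gene start. The table held 9 of the 10 genes, and for 5 of them, Smarca4, Smarca2, Smarcb1, Smarcc2 and Smarcd1, the window contained the gene start of the count table. For Smarcc1, Smarcd2, Smarcd3 and Actl6a the RefSeq start lay 14316, 5340, 22409 and 2248 bases from that gene start. Of the 5 windows that contained it, the 3 whose transcripts rose in Pbrm1 cKO are printed 5′ to 3′ on the coding strand. Capitals mark GC boxes (GGGCGG on either strand), the motif of the Sp family of activators. They are Smarca4 at chr9:21615919-21616218, Smarcc2 at chr10:128458986-128459285 and Smarcd1 at chr15:99702037-99702336, all on the plus strand.
Smarca4: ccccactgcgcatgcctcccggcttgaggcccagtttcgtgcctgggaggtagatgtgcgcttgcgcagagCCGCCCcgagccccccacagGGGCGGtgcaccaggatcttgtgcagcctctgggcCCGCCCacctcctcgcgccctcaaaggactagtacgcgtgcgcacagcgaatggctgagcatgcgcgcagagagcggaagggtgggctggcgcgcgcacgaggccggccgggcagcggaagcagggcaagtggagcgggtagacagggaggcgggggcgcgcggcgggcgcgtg
Smarcc2: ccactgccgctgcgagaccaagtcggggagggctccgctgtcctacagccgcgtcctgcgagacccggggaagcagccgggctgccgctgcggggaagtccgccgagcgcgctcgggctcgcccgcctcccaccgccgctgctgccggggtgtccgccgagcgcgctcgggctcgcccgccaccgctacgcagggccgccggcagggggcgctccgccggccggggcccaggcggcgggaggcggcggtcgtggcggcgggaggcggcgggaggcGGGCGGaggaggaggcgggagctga
Smarcd1: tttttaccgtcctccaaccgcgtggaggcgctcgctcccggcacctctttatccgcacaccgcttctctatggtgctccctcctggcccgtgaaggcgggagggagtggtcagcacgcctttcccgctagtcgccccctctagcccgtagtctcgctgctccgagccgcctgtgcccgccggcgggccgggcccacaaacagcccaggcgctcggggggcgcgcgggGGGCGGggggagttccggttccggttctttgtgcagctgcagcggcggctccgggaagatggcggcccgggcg
All 3 are CpG-rich, with 33, 48 and 35 CpG dinucleotides against a median of 7 over 32851 promoters. The Smarcc2 window held more CpG than 98.8% of all promoters. Smarca4 had 3 GC boxes and the other two had 1 each. At least 1 GC box was present in each of the 9 windows, a motif found in 35.7% of all promoters. The window of Smarcb1, whose transcript did not pass the test, held 27 CpG and 3 GC boxes, as many GC boxes as that of Smarca4. The window of Smarcd2, away from the gene start of the count table, held 4 CpG, below the median of 7. In the same 9 windows the ETS core CCGGAAG occurred in Smarca2 and Smarcc1 (8.86% of all promoters hold it), TATAAA in Smarcd2 alone (13.6%), and CCAAT (37.4%) and CACGTG (7.15%) in none. Each motif was sought on both strands. These are matches of letters, and no factor's binding was measured.

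The genotypes were compared to find transcripts that differ in Pbrm1 cKO, and the shared subunits were read from that comparison. Smarca4, Smarcc1, Smarcc2 and Smarcd1 rose, Smarcd2 and Actl6a fell, and Smarca2, Smarcb1, Smarcd3 and Smarce1 did not pass the test. That is 4 of 10 higher and 2 of 10 lower at a DESeq2 adjusted p under 0.05. Across all 17471 genes tested 15.9% were higher and 15.2% were lower, and among the 7518 genes whose WT mean lay within the range of the 10 subunits the shares were 20.5% and 20.2%. For 7 of the 10 the libraries of the groups did not overlap, as was so for 48.6% of all tested genes. The median log2 fold change of the 10 was 0.087, beside -0.0006 over all genes tested. It became -0.05 when the trend of fold change with gene length was removed. All 6 changes were under 2-fold, the highest being 1.53-fold for Smarcc1 and the lowest Smarcd2 at 71.8% of WT.

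**Figure D1:**
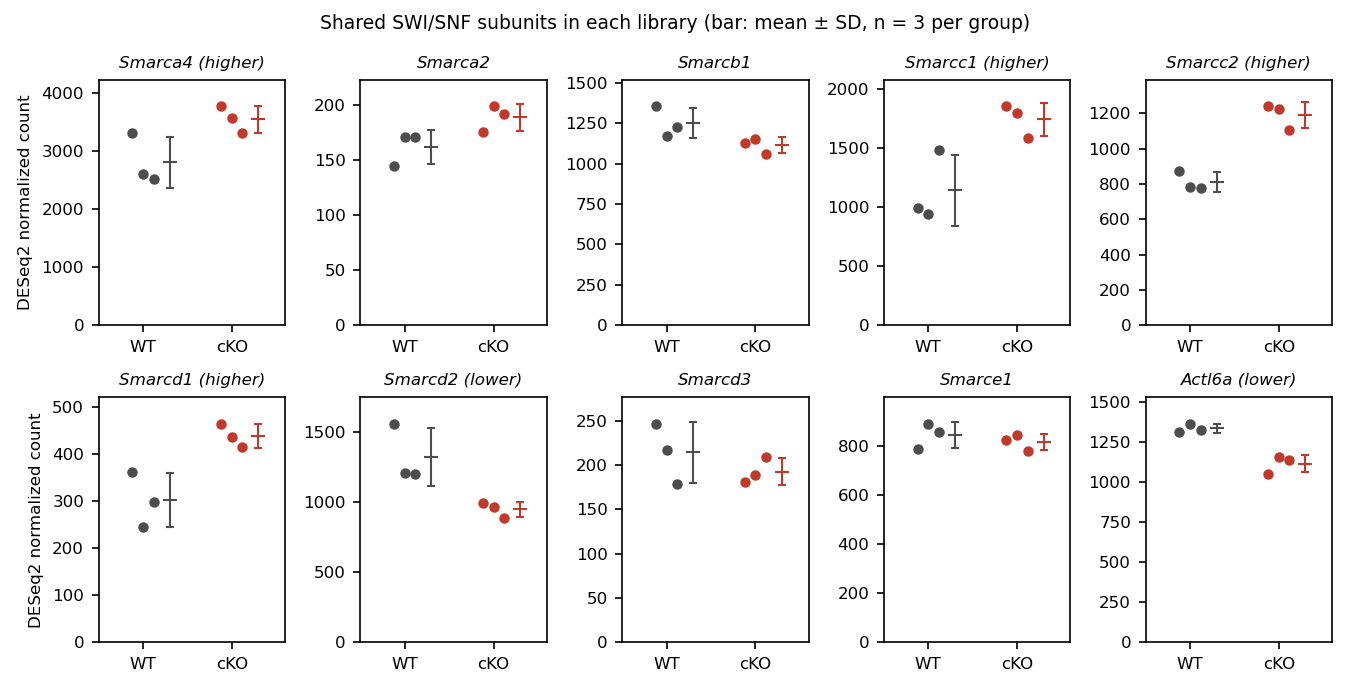
Normalized counts of the 10 shared subunits (y axis, DESeq2 normalized count from 0) in each WT (gray) and Pbrm1 cKO (red) library, with mean ± SD beside the points (n = 3 per group). The groups are apart for Smarcc1, Smarcc2, Smarcd1, Smarcd2 and Actl6a, and also for Smarca2 and Smarcb1, which did not pass the test.

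The motor subunits were read first. Smarca4 (ENSMUSG00000032187.16, chromosome 9, 21616169 to 21704230, plus strand, GRCm38/mm10) had 3303, 2595 and 2511 normalized counts in WT, against 3767, 3563 and 3300 in Pbrm1 cKO. WT replicate 1 was the high one of its group and stood level with the lowest Pbrm1 cKO library, so the groups just overlapped. The mean rose from 2803 ± 435 to 3543 ± 234 (SD, n = 3 each), a log2 fold change of 0.34 (SE 0.13, adjusted p = 0.0262). This call did not hold without Pbrm1 cKO replicate 1 (adjusted p = 0.16), without Pbrm1 cKO replicate 2 (0.118), without WT replicate 2 (0.137) or without WT replicate 3 (0.0835). The log2 fold changes in these fits were 0.30, 0.34, 0.28 and 0.26. The call was also lost with the length trend removed (0.0642) and with upper-quartile scaling (0.0774).

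Smarca2 (ENSMUSG00000024921.17, chromosome 19, 26605050 to 26778322, plus strand), the other motor, was the rarest of the 10. It had 144.3, 170.9 and 170.8 normalized counts in WT, against 175.6, 199 and 192.3 in Pbrm1 cKO. Every Pbrm1 cKO library was above every WT library, by a small margin. The log2 fold change was 0.22 (95% interval -0.11 to 0.56, adjusted p = 0.361), so a rise of up to 0.56 was within the error. With the length trend removed the log2 fold change of Smarca2 was 0.03 (adjusted p = 0.923).

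The scaffold pair rose on both sides. Smarcc1 (ENSMUSG00000032481.17, chromosome 9, 110117708 to 110240178, plus strand) had 993, 941.1 and 1487 normalized counts in WT, against 1853, 1792 and 1585 in Pbrm1 cKO. WT replicate 3 was the exception of its group and lay close under the lowest Pbrm1 cKO library. The mean rose from 1140 ± 301.5 to 1743 ± 140.6, a log2 fold change of 0.61 (SE 0.17, adjusted p = 0.0018).

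Smarcc2 (ENSMUSG00000025369.15, chromosome 10, 128459248 to 128490482, plus strand) had 874.3, 781.3 and 776.1 normalized counts in WT, against 1241, 1228 and 1104 in Pbrm1 cKO. The groups were well apart, and the spread within each was small. The log2 fold change was 0.56 (SE 0.11, adjusted p = 3.69e-06), the lowest adjusted p of the 10 subunits. Both scaffold calls held in all 15 alternative settings, with log2 fold changes of 0.49 to 0.85 for Smarcc1 and 0.50 to 0.61 for Smarcc2.

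The Smarcd family moved in opposite directions. Smarcd1 (ENSMUSG00000023018.5, chromosome 15, 99702129 to 99713991, plus strand), which is used by BAF, PBAF and the noncanonical form alike, had 362.3, 246.4 and 299.4 normalized counts in WT, against 465.7, 437.1 and 415.7 in Pbrm1 cKO. Each Pbrm1 cKO library exceeded each WT library. The log2 fold change was 0.54 (SE 0.16, adjusted p = 0.00476), and the call was lost without Pbrm1 cKO replicate 1 (0.0584).

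Smarcd2 (ENSMUSG00000078619.10, chromosome 11, 106263179 to 106272972, minus strand), known for its role in granulocyte development, had 1563, 1209 and 1201 normalized counts in WT, against 997.4, 964.4 and 889.5 in Pbrm1 cKO. All 3 Pbrm1 cKO libraries were below all 3 WT libraries, of which replicate 1 was the highest. The mean fell from 1324 ± 206.7 to 950.4 ± 55.3, a log2 fold change of -0.48 (SE 0.13, adjusted p = 0.00169). It was past the threshold in all 15 alternatives (-0.55 to -0.34).

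Smarcd3 (ENSMUSG00000028949.13, chromosome 5, 24590818 to 24624411, minus strand), the family member known from heart development, had 246.9, 217.5 and 178.4 normalized counts in WT, against 180.5, 188.6 and 209.2 in Pbrm1 cKO. The groups overlapped across most of their range. Its log2 fold change was -0.15 (95% interval -0.50 to 0.20, adjusted p = 0.587).

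Smarcb1 (ENSMUSG00000000902.13, chromosome 10, 75896769 to 75921617, minus strand), which grips the nucleosome face and is a tumor suppressor, had 1355, 1173 and 1228 normalized counts in WT, against 1127, 1154 and 1061 in Pbrm1 cKO. The Pbrm1 cKO libraries were all lower, by a narrow margin at WT replicate 2. The log2 fold change was -0.17 (95% interval -0.37 to 0.03, adjusted p = 0.227), and with the length trend removed it was -0.28 and past the threshold (0.0124).

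Smarce1 (ENSMUSG00000037935.16, chromosome 11, 99209047 to 99231017, minus strand), the subunit with an HMG DNA-binding domain, had 788.8, 892.3 and 857.2 normalized counts in WT, against 825.8, 843.8 and 780.7 in Pbrm1 cKO. The libraries of the groups were interleaved. The log2 fold change was -0.05 (adjusted p = 0.784), with a 95% interval of -0.26 to 0.16 that leaves out any of the changes over 0.3 found for Smarca4, the Smarcc pair, Smarcd1 and Smarcd2. Its transcripts shared 15.0% of their 50-base stretches with genes elsewhere, and reads from these stretches map to more than 1 place. Of these 1006 stretches, 709 were shared with the same processed pseudogene. For the other 9 that share was at most 2.35%.

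Actl6a (ENSMUSG00000027671.14, chromosome 3, 32706298 to 32726973, plus strand), an actin-related protein that also serves INO80, SRCAP and TIP60 complexes, had 1311, 1363 and 1324 normalized counts in WT, against 1051, 1152 and 1138 in Pbrm1 cKO. The WT libraries were almost level and all above the Pbrm1 cKO libraries. The mean fell from 1333 ± 26.8 to 1114 ± 55.0, a log2 fold change of -0.26 (SE 0.09, adjusted p = 0.0227). Of the fits that left out 1 library, those without Pbrm1 cKO replicate 1 (0.166), replicate 2 (0.077) and replicate 3 (0.0759) and without WT replicate 2 (0.0874) lost the call. Actl6b, the paralog that takes its place in neurons, had 0 counts in all 6 libraries.

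All 6 calls remained without WT replicate 1, whereas 3 remained without Pbrm1 cKO replicate 1. Fold changes went with gene length. Over all genes tested the median log2 fold change was -0.18 for genes with up to 1 kb of exon and 0.14 for genes with over 8 kb, and it was -0.02 from 2 to 4 kb and 0.04 from 4 to 8 kb. The 4 subunits that rose have 4.03 to 7.83 kb of exon, and the 2 that fell have 3.59 kb (Smarcd2) and 3.89 kb (Actl6a). Of the 4 that did not pass, Smarca2 has 14.3 kb, Smarcb1 7.93 kb, Smarce1 6.65 kb and Smarcd3 5.12 kb, and the fold changes of the last 3 were below 0. With that trend removed the calls of Smarcc1, Smarcc2, Smarcd1, Smarcd2 and Actl6a stood.

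**Figure D2:**
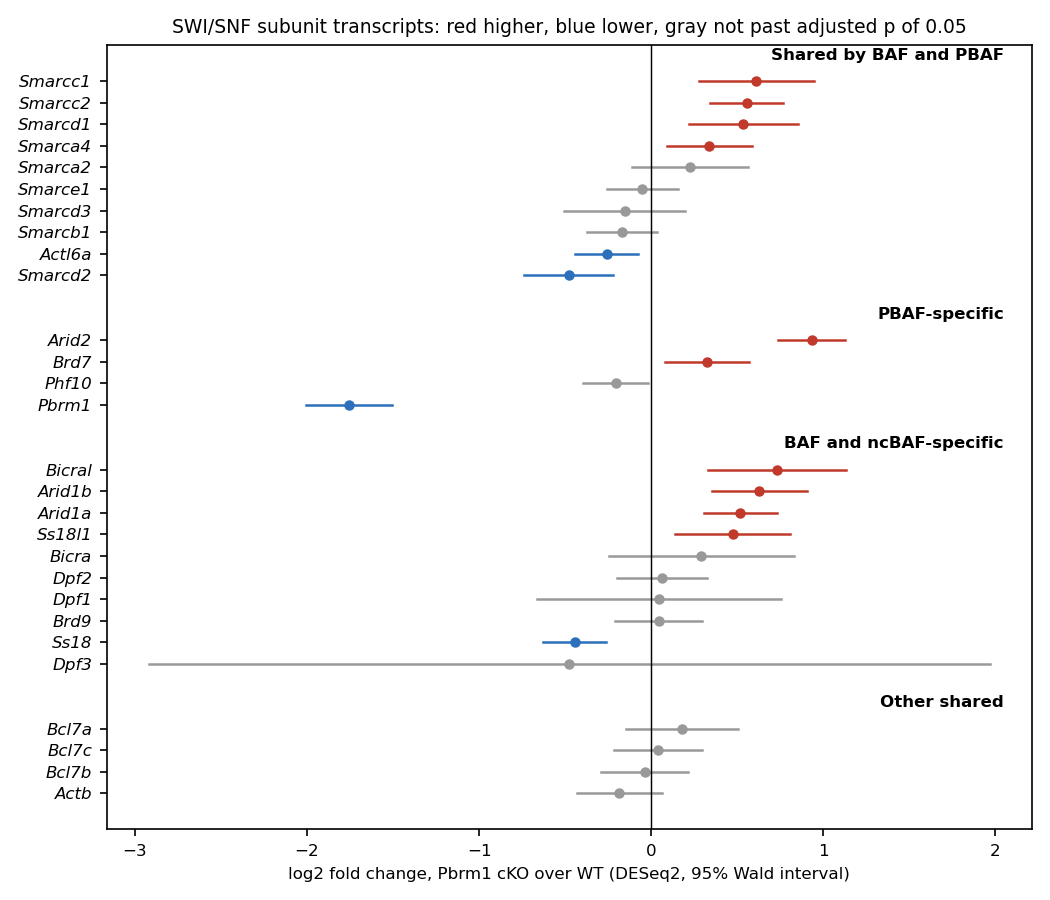
Log2 fold change of Pbrm1 cKO over WT (x axis) with its 95% Wald interval from DESeq2 for each SWI/SNF subunit tested, grouped by the form of the complex it belongs to (red higher, blue lower, gray not past an adjusted p of 0.05). Among the shared subunits 4 are red and 2 are blue, and Pbrm1 at -1.76 is the lowest point.

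Levels were compared between genes as normalized counts per kb of annotated exon. In WT the order was Smarca4 at 432.9 ± 67.2 per kb, Smarcd2 at 368.9 ± 57.6, Actl6a at 343.0 ± 6.89, Smarcb1 at 157.9 ± 11.8, Smarcc2 at 146.0 ± 9.95, Smarcc1 at 145.6 ± 38.5, Smarce1 at 127.2 ± 7.91, Smarcd1 at 75.2 ± 14.4, Smarcd3 at 41.9 ± 6.72 and Smarca2 at 11.4 ± 1.08. The first 3 overlapped with their neighbours, and so did the next 4, from Smarcb1 to Smarce1. Smarcd1, Smarcd3 and Smarca2 stood apart from the gene before each. In Pbrm1 cKO the order was Smarca4 at 547.2 ± 36.1 per kb, Actl6a at 286.6 ± 14.2, Smarcd2 at 264.8 ± 15.4, Smarcc1 at 222.6 ± 17.95, Smarcc2 at 214.6 ± 13.6, Smarcb1 at 140.5 ± 6.00, Smarce1 at 122.8 ± 4.89, Smarcd1 at 109.2 ± 6.23, Smarcd3 at 37.7 ± 2.89 and Smarca2 at 13.2 ± 0.843. Here only Actl6a with Smarcd2 and Smarcc1 with Smarcc2 overlapped. Smarca4 held 23.4% of the summed level of the 10 in WT and 27.9% in Pbrm1 cKO. The sum itself was 1850 ± 136.8 per kb in WT and 1959 ± 86.2 in Pbrm1 cKO, with WT replicate 1 (2005) inside the range of the Pbrm1 cKO libraries (1860 to 2020).

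This order depends on the length used. The annotated exons of Smarcb1 span 7930 bases, whereas its longest protein-coding transcript has 1660, and those of Smarca2 span 14269 bases against 5921. Per kb of the longest protein-coding transcript, an alternative chosen after the values were seen, Smarcb1 came first in WT at 754.3 ± 56.3 and Actl6a second at 663.1 ± 13.3, with Smarcd2 and Smarca4 next at 482.0 ± 75.2 and 439.6 ± 68.2. Smarca2 remained last at 27.4 ± 2.59 in WT and 31.9 ± 2.03 in Pbrm1 cKO. On this scale Smarca4 held 13.5% of the summed level in WT and 17.1% in Pbrm1 cKO, and the sum of the 10 was 3246 ± 193.5 in WT and 3246 ± 117.9 in Pbrm1 cKO.

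**Figure D3:**
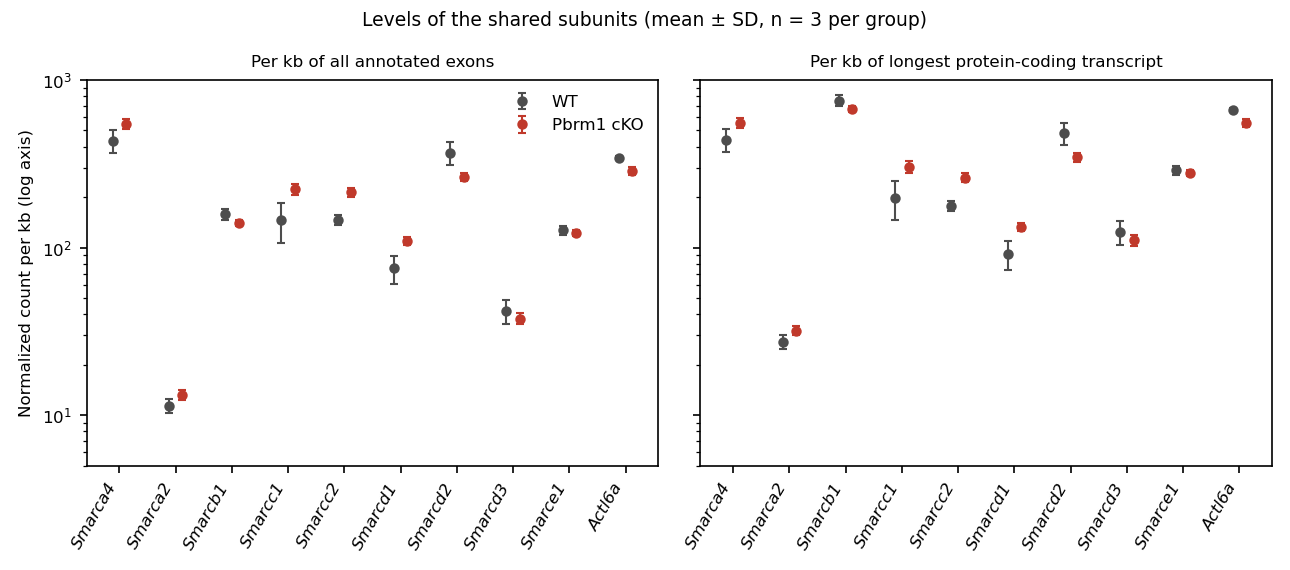
Levels of the 10 shared subunits as normalized counts per kb (log axis, mean ± SD, n = 3 per group), per kb of all annotated exons at left and per kb of the longest protein-coding transcript at right. Smarca2 is lowest on both scales, and Smarcb1 moves from 157.9 to 754.3 in WT between them.

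Shares within a paralog family do not depend on the scaling between libraries, so they were computed in each library from counts per kb. The clearest shift was in the Smarcd family. Smarcd1 made up 15.7%, 13.9% and 16.8% of the Smarcd sum in WT and 27.0%, 26.2% and 26.3% in Pbrm1 cKO, a gain of 11.1 percentage points. Smarcd2 made up 75.9%, 76.5% and 75.4% in WT and 64.8%, 64.9% and 63.2% in Pbrm1 cKO, a loss that took the mean from 75.9% ± 0.533 to 64.3% ± 0.934 (SD, n = 3 each). In both cases the groups were far apart relative to their spread. Smarcd1 and Smarcd2 are parts of the same sum, so the gain and the loss are not independent results. The two-sided exact permutation test gave p = 0.1 for each, the smallest value that 3 against 3 allows, and 0.25 after Benjamini-Hochberg adjustment over the 5 shares tested. Smarcd2 remained the main member of the family in every library, and Smarcd3 was at 8.63% ± 0.920 in WT and 9.18% ± 1.13 in Pbrm1 cKO (exact permutation p = 0.6). Per kb of the longest protein-coding transcript, Smarcd1 was at 13.1% ± 1.37 and 22.5% ± 0.579, Smarcd2 at 69.1% ± 0.325 and 58.6% ± 1.58, and Smarcd3 at 17.8% ± 1.68 and 18.9% ± 2.07.

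In the other families no shift was seen beyond the spread. Smarcc1 was 44.6%, 46.1% and 57.6% of the Smarcc pair in WT and 51.4%, 50.9% and 50.4% in Pbrm1 cKO. The rise of Smarcc1 and Smarcc2 thus left their balance within the WT range, with means of 49.4% ± 7.12 and 50.9% ± 0.496 (exact permutation p = 0.9), and the difference changed sign without WT replicate 1 or WT replicate 2. Smarca2 was 2.61% ± 0.582 of the motor pair in WT and 2.37% ± 0.266 in Pbrm1 cKO (exact permutation p = 0.6). Per kb of the longest protein-coding transcript it was 5.98% ± 1.29 and 5.45% ± 0.594, so Smarca4 supplied most motor transcripts on either scale.

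**Figure D4:**
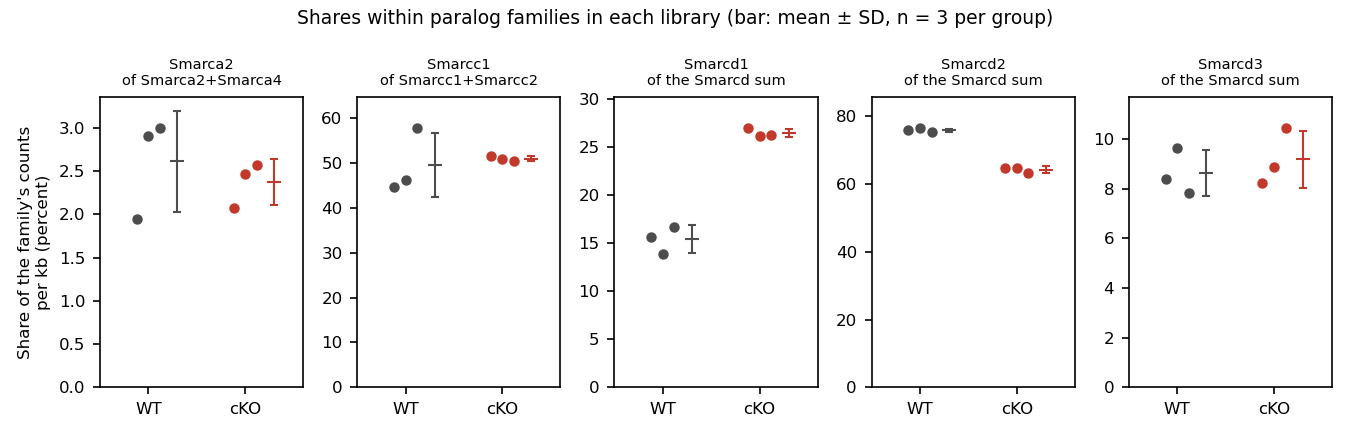
Share of each paralog in its family (y axis, percent of the family's counts per kb, from 0) in each WT (gray) and Pbrm1 cKO (red) library, with mean ± SD beside the points (n = 3 per group). The groups are apart for Smarcd1 (15.4% against 26.5%) and Smarcd2 (75.9% against 64.3%) and overlap for the other 3 shares.

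The subunits that distinguish the forms of the complex give the setting of these changes. Of the 4 PBAF-specific genes, 2 rose and 1 fell, the last being Pbrm1 itself. Arid2, which builds PBAF together with Pbrm1, had 595.4, 572.7 and 580.5 normalized counts in WT, against 1143, 1120 and 1079 in Pbrm1 cKO. Its libraries formed 2 tight and distant groups, with a log2 fold change of 0.93 (SE 0.10, adjusted p = 3.51e-19). Brd7, a bromodomain subunit, rose by 0.33 (SE 0.13, adjusted p = 0.0321). Of the 10 genes specific to canonical or noncanonical BAF, 4 rose and 1 fell, with a median log2 fold change of 0.18. Arid1a rose by 0.52 (SE 0.11, adjusted p = 1.54e-05) and Arid1b by 0.63 (SE 0.14, adjusted p = 7.23e-05), the alternative ARID subunits of canonical BAF. Ss18 changed by -0.44 (SE 0.09, adjusted p = 1.8e-05). None of the 4 tested genes among 5 other shared subunits, which include actin, passed the test.

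Outside SWI/SNF, 10 of 18 ATPases of other remodeler families rose and 3 fell, with a median log2 fold change of 0.39. With the length trend removed, 7 of these ATPases were higher and 4 lower. Chd5 rose by 1.87 (SE 0.26, adjusted p = 2.41e-11) from 34.4 ± 6.18 normalized counts, and Ep400, the motor of the TIP60-p400 complex, rose by 0.69 (SE 0.10, adjusted p = 4.78e-11). Hells, a remodeler tied to DNA methylation and proliferation, had a log2 fold change of -1.57 (SE 0.14, adjusted p = 6.39e-28), and Smarca1, an ISWI motor, one of -1.28 (SE 0.27, adjusted p = 1.48e-05). The complexes that share Actl6a had 7 of 32 genes higher and 2 lower, with a median of 0.02. Ino80d rose by 0.97 (SE 0.13, adjusted p = 6.04e-13), whereas Morf4l2 changed by -0.61 (SE 0.08, adjusted p = 8.7e-13) and Actr8 by -0.38 (SE 0.15, adjusted p = 0.0375). These shares are read beside the 15.9% and 15.2% of all genes, and no test of the lists was made.

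The authors' counting used strand. Smarcc1 overlaps the start of Dhx30, Smarcd3 overlaps Chpf2, and Actl6a overlaps the end of Mrpl47, in each case on the opposite strand. Gm27373, annotated as misc_RNA within Smarca4 on the same strand, had 1 count in WT replicate 1 and 0 in the other libraries. Smarcc2, Smarcd1, Smarcd2 and Smarcd3 shared no 50-base stretch with a gene elsewhere.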

How the data were processed

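RNA-seq libraries of 3 WT and 3 Pbrm1 cKO samples were analysed, grouped by the labels. The authors trimmed reads with cutadapt, mapped them with HISAT2 to GRCm38 and deposited raw counts per gene from featureCounts 1.6.4 (reverse-stranded, GENCODE mouse release 18), with no normalization and replicates kept apart. Under that program's defaults, reads at more than 1 place are left out, which lowers counts of genes with pseudogene copies. The labels describe random and poly(T) priming with depletion, the study's methods poly(A) purification, so the RNA classes captured are not settled. Gene symbols were matched for 54079 of 54232 genes (99.7%) and transcripts were from GENCODE release 21. Promoters were from RefSeq.

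Genotypes were compared with DESeq2 1.42.0 in R 4.3.3 by its Wald test (its own size factors and filtering, no covariate, Benjamini-Hochberg adjustment over all genes tested, threshold 0.05). Adjusted p-values are from DESeq2 unless another test is named. Paralog shares were compared with exact permutation tests. Genes named were the 10 subunits, Pbrm1, Actl6b, at most the 2 genes of lowest adjusted p per direction of each remodeler list (mean normalized count of at least 50), and the 2 most abundant of each cell type or cycle list. Other genes appear only where they are at the floor (at most 3 counts in every library) or overlap a subunit. The subunits and all lists were chosen with earlier results of these data known. Alternatives were edgeR 4.0.16, limma 3.58.1, other scalings and filters, thinned libraries, removal of the trend with gene length, and leaving out each library. Counts of 28552 genes were also simulated, with 200 genes changed, each with a mean of at least 50, and the same spread in both groups. There DESeq2 recovered 49.3% of genes changed by 0.5 on the log2 scale and 87.3% of those changed by 1. It recovered 100% of those changed by 2, with 17 false calls. The data differ, with 2774 genes higher, 2658 lower and a wider spread in WT, so these percentages are not the power of this comparison.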

Additional observations from a re-analysis of the deposited data

How the results depend on the processing

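Over the 15 alternative settings of the gene tests, Smarcc1, Smarcc2, Smarcd2 and Pbrm1 kept their direction and stayed past the threshold, and no subunit changed direction. With 1 library left out, 2 to 4 subunits were higher and 1 to 2 lower. Over all genes these fits had 1924 to 2926 higher and 1801 to 2659 lower, against 2774 and 2658 with all libraries. With the replicate number as a block 4 were higher and 1 lower (Actl6a lost its call, adjusted p = 0.116), and 2174 genes were higher and 1838 lower in all. Deviations of same-numbered libraries correlated at 0.114, -0.0515 and 0.0028, and only those of replicate 1 correlated best with each other. Such correlations cannot settle whether the numbers pair the samples. The median log2 fold change of the 10 subunits reversed to -0.0512 with the length trend removed, by which Smarcb1 also gained a call. Lower genes of the complexes that share Actl6a went from 2 to 1 with TMM scaling, with no independent filtering, with the replicate block and in the fits that left out 1 library (1 to 2), and to 3 with edgeR, limma, the mean-count filter and upper-quartile scaling. The difference in the Smarcc1 share, 1.48 percentage points, was -0.933 without WT replicate 1, -0.204 without WT replicate 2 and 5.57 without WT replicate 3. With 1 library left out, that of the Smarcd3 share, 0.547, ranged from -0.0757 without Pbrm1 cKO replicate 3 to 1.05 without WT replicate 2, and it was 1.13 per kb of the longest protein-coding transcript. The causes were not tested.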
